A study of Homo sapiens with 26 samples.

Results

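The RNA of unstressed cells carrying the Y396E form of IGF2BP1 was compared with that of cells carrying the wild-type (WT) form. The members were the 3 Y396E and 3 WT control libraries, chosen by their labels, 6 of the 26 libraries of the series. All 6 came from HCT116 cells, a human colorectal carcinoma line carrying Tet-OsTIR1, in which IGF2BP2 and IGF2BP3 had been disrupted by CRISPR and mCherry-IGF2BP1 was delivered by lentivirus under the human PGK promoter. Control cells received PBS. The other libraries were the RQ and S181E forms (3 control libraries each), parental HCT116 cells (1 control library), and the same populations after 500 µM arsenite for 2 h. Each form was carried by 1 sorted population, and the 3 libraries of a form came from dishes grown separately from it. The effect of the mutation and a difference between populations therefore cannot be told apart, and the p-values below measure the spread between dishes.

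IGF2BP1 binds RNA through 2 RRM and 4 KH domains and acts on the localization, translation and stability of the mRNAs it binds. It is abundant in embryonic tissue and reappears in many tumours. Y396 is a tyrosine in the second disordered linker of the protein, and its replacement by glutamate mimics phosphorylation. S181E places a glutamate in the first linker, and RQ replaces arginines of that linker by glutamine.

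Read counts per gene were used. The 6 libraries held 25242341 to 38635034 counts, of which 89.6% to 95.9% fell on protein-coding genes. The mitochondrial share of all counts was 23.4%, 26.9% and 21.1% in the WT libraries and 17.1%, 14.3% and 12.3% in the Y396E libraries, so the 2 groups did not overlap. It was 17.8% in the parental control library. The summed level of 7 epithelial markers on library totals was 2203 to 2730 CPM (counts scaled to a common library size) in WT. It was 3166 to 3569 CPM in Y396E and 3275 CPM in the parental control library, with the intestinal marker VIL1 near 0. On library totals, the keratins KRT8, KRT18 and KRT19 were higher in every Y396E library. The parental library held 1139, 868 and 913 CPM of them, also above every WT library. EPCAM (320 to 366 CPM in WT, 310.0 to 340.2 in Y396E) and CDH1 (28.3 to 36.6 and 24.3 to 31.9) overlapped between groups on these totals. The parental library held 315 and 21.5 CPM of them, below every WT library. With the scaling used for single genes below, CDH1 did not overlap (36.3 to 43.4 CPM in WT, 25.0 to 33.2 in Y396E). The 28 markers of other cell types summed to 29.4 to 35.4 CPM in WT and 19.6 to 21.6 in Y396E, and PTPRC, the leukocyte marker, was at 0 in all. Without MKX, described below, that sum was 11.7 to 15.4 in WT and 15.9 to 16.4 in Y396E.

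Of 9099 protein-coding genes tested, 2606 were called (28.6%), 1317 higher and 1289 lower in Y396E. A gene was called where the adjusted p of edgeR's quasi-likelihood test (Benjamini-Hochberg) was under 0.05 and the fold change above 1.2. With the mitochondrial genome and the chromosome 8 stretch described next left out of the scaling factors, 2476 of these calls were kept. Any further part of the mitochondrial share in the results was not tested. One stretch of chromosome 8, from HGSNAT to the end of the long arm, was lower as a block and is described separately. Off the stretch, 1315 of 8892 genes were higher (14.8%) and 1102 were lower (12.4%), with a median log2 change of 0.02. WT and Y396E values did not overlap for 52.7% of these genes, so separation of the groups was common. Calls and overlaps given below for gene lists and single genes are to be read beside these shares. Rises and falls are against WT and not against the parental cells, whose levels are given for some genes further below. Most changes were small. Only 8 genes (0.0900%) were higher and 44 (0.495%) lower by more than 2-fold. Of 153 genes of other types, 4 were higher (2.61%) and 42 lower (27.5%). Scaling by library totals alone moved the median of all genes to 0.14 and the split off the stretch to 2712 higher and 476 lower, so each direction below is relative to the TMM scaling (trimmed mean of M values) unless stated.

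**Figure D1:**
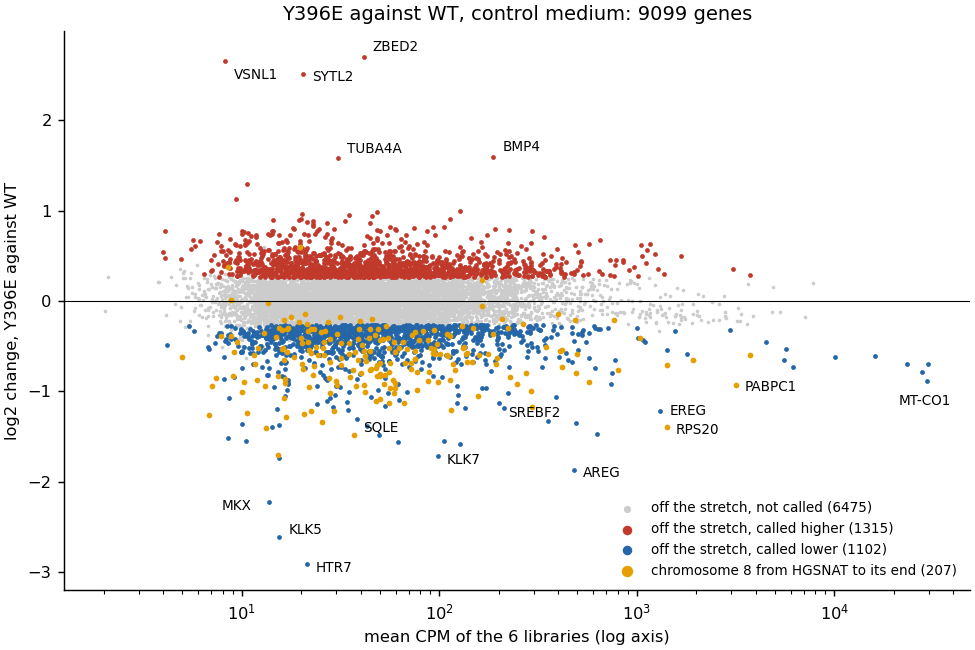
Log2 change, Y396E against WT in control cells, against mean CPM (log axis), 1 point for each of the 9099 genes tested, with genes on the chromosome 8 stretch marked apart. The stretch genes lie mostly below 0, while the other genes spread to both sides of a median of 0.02.

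The transgene was present at a somewhat higher RNA level in Y396E. IGF2BP1 stood at 10.9, 10.6 and 14.7 CPM in WT and at 15.3, 16.6 and 17.6 CPM in Y396E, with no overlap. The log2 change was 0.45 ± 0.10 (SE, n = 3 each; edgeR adjusted p = 0.00115), and the parental library held 0.347 CPM. RNA of IGF2BP3, the paralog disrupted in these cells, was at 116, 118 and 119.6 CPM in WT and at 166, 163 and 165 CPM in Y396E (log2 change 0.48 ± 0.05, edgeR adjusted p = 2.74e-08). IGF2BP2, the other disrupted paralog, was not called (-0.09 ± 0.05, edgeR adjusted p = 0.212). RNA levels say nothing of the protein of a disrupted gene. Among 14 tested mRNAs listed as known IGF2BP targets, 7 rose and 1 fell, with a median of 0.27. FSCN1, which encodes the actin bundler fascin, rose by 0.57 ± 0.06, FEN1, a flap endonuclease, by 0.50 ± 0.07 and TK1, thymidine kinase, by 0.41 ± 0.04. FEN1 and TK1 act in DNA synthesis, and the list also holds the proliferation genes E2F1 and MKI67. Genes of the cell cycle were mostly higher, as described below, and this overlap was not separated from the list. HMGA2, a chromatin protein, fell by 0.33 ± 0.06.

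ZBED2, VSNL1 and SYTL2, the largest rises, were of low level in WT. ZBED2, a zinc-finger transcriptional regulator, stood at 10.6, 10.2 and 12.2 CPM in WT and at 66.4, 69.9 and 79.1 CPM in Y396E. Every Y396E library was above every WT library, by 6.52-fold on average (log2 change 2.70 ± 0.12, edgeR adjusted p = 1.29e-14). VSNL1, a neuronal calcium sensor, was at 2.48, 2.04 and 2.17 CPM in WT and at 13.9, 13.5 and 15.3 CPM in Y396E (2.66 ± 0.12, edgeR adjusted p = 1.76e-14). SYTL2, a synaptotagmin-like protein of vesicle traffic, was at 6.41, 6.37 and 5.34 CPM in WT and at 33.0, 36.1 and 34.7 CPM in Y396E (2.52 ± 0.08, edgeR adjusted p = 2.54e-17). Neither gene overlapped between groups. Both lay under 10 CPM in every WT library. They passed the filter, above 10 CPM in at least 12 of 24 libraries, only through other libraries. Ranking by fold change favours genes low in WT, so nothing is read from that low level. BMP4, a secreted ligand of the TGF-beta family, began at a higher level, 88.5, 106 and 85.7 CPM in WT, and reached 285, 292 and 269 CPM in Y396E (1.60 ± 0.07, edgeR adjusted p = 8.27e-15). The tubulin gene TUBA4A (1.58 ± 0.12), ALDH2, the mitochondrial aldehyde dehydrogenase (1.29 ± 0.13), the transcription factor GATA2 (1.13 ± 0.12) and PHLDB2 (1.00 ± 0.06) completed the 8 largest rises.

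The largest falls included a receptor, secreted proteases and growth factors. HTR7, a serotonin receptor, was at 38.3, 37.7 and 37.2 CPM in WT and at 6.10, 5.06 and 3.92 CPM in Y396E, 7.53-fold lower (log2 change -2.91 ± 0.16, edgeR adjusted p = 3.54e-13). KLK5, a secreted kallikrein protease, was at 25.4, 29.8 and 24.5 CPM in WT and at 5.02, 3.79 and 4.20 CPM in Y396E (-2.61 ± 0.13, edgeR adjusted p = 8.35e-14). MKX, a homeobox factor of tendon, was at 22.3, 22.7 and 22.8 CPM in WT and at 5.23, 3.83 and 5.32 CPM in Y396E (-2.23 ± 0.17, edgeR adjusted p = 2.16e-10). The groups were apart for all 3 genes. All 3 lay under 10 CPM in every Y396E library and passed the filter only through other libraries. Nothing is read from that low level. NR2F1, a nuclear receptor, fell by 1.56 ± 0.06 on the log2 scale and PRSS22, a serine protease, by 1.74 ± 0.13.

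**Figure D2:**
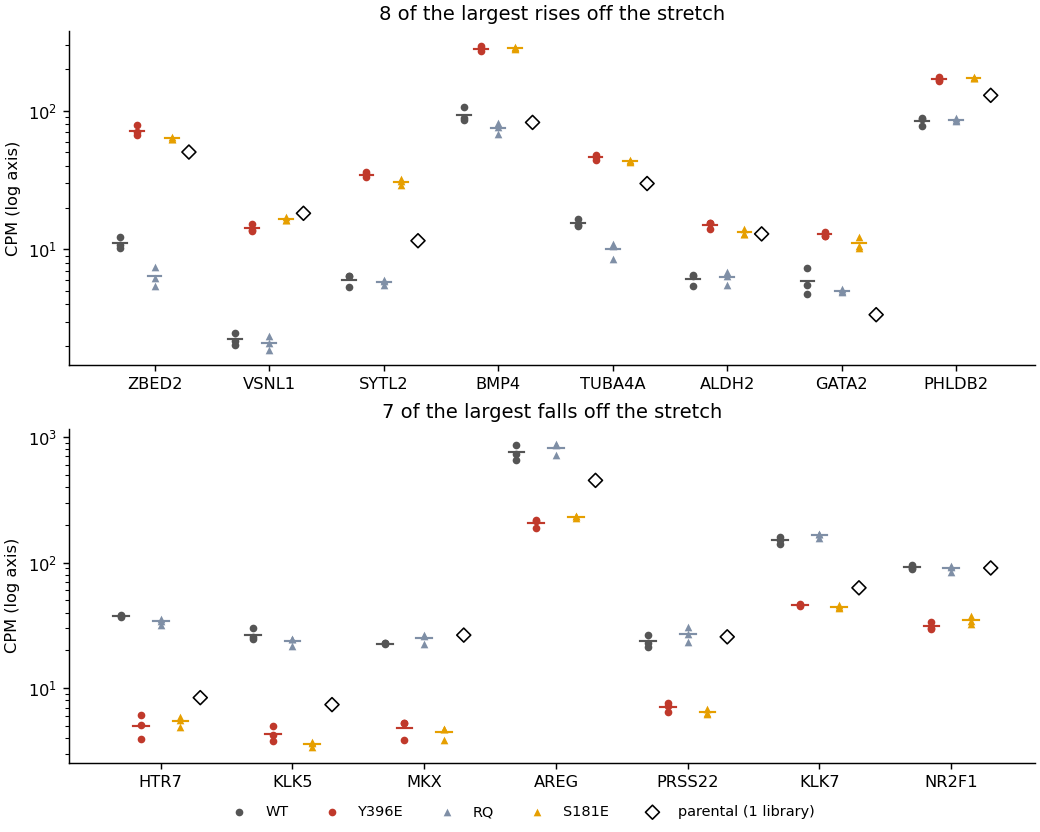
Level in CPM (log axis) of the 8 largest rises and 7 of the largest falls off the stretch in each control library, with the group mean as a bar and the single parental library as a diamond. For ZBED2 the Y396E points lie at 66.4 to 79.1 CPM and the WT points at 10.2 to 12.2 CPM.

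Genes of the EGFR family and its ligands were mostly lower. The list, which also holds the receptor tyrosine kinase genes MET and AXL, had 10 tested members, of which 7 fell and none rose, with a median of -0.55. AREG, which encodes the ligand amphiregulin, was at 737, 867 and 659.8 CPM in WT and at 215, 218 and 188 CPM in Y396E (-1.87 ± 0.08, edgeR adjusted p = 6.38e-15). EREG, which encodes epiregulin, was at 1862, 1983 and 1656 CPM in WT and at 796, 824 and 749 CPM in Y396E (-1.22 ± 0.07, edgeR adjusted p = 1.05e-12). Both ligands were lower in every Y396E library. HBEGF, another ligand of the receptor, changed by -0.94 ± 0.09, the receptor genes ERBB2 and ERBB3 by -0.56 each, and ERRFI1, an inhibitor of the receptor, by -0.55 ± 0.04. AXL was at -0.27 ± 0.06. MET (-0.07 ± 0.05), EGFR itself (-0.06 ± 0.08) and the ligand TGFA (-0.08 ± 0.05) did not pass. Of 19 targets and feedback genes of MAPK signalling, 7 fell and 2 rose (median -0.22). SPRY4, an inhibitor of the pathway, fell by 0.65 ± 0.05, the early transcription factor EGR1 by 0.62 ± 0.09 and the cytokine LIF by 0.51 ± 0.05, while CCND1, cyclin D1, rose by 0.46 ± 0.06.

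Genes of cholesterol synthesis and uptake were also lower. Of 24 tested, 16 fell and none rose, with a median of -0.46. SREBF2, the transcription factor that drives the pathway, was at 288, 266 and 272 CPM in WT and at 134, 126 and 119 CPM in Y396E (-1.13 ± 0.05, edgeR adjusted p = 2.31e-14). The groups were apart. INSIG1, which retains the SREBP complex in the endoplasmic reticulum, fell by 1.16 ± 0.09 and MSMO1, a sterol oxidase, by 1.01 ± 0.10. SQLE, squalene epoxidase, lies on the chromosome 8 stretch.

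Targets of NRF2, the factor that answers oxidants, were more often higher. Of 23 tested, 11 rose and 3 fell (median 0.25). TXNRD1, thioredoxin reductase, was at 450.4, 440.3 and 459.7 CPM in WT and at 665, 722 and 709 CPM in Y396E (0.63 ± 0.04, edgeR adjusted p = 1.63e-11), with no overlap. OSGIN1 rose by 0.90 ± 0.10, NQO1, a quinone reductase, by 0.42 ± 0.05 and SLC7A11, the cystine transporter, by 0.50 ± 0.09. The 2 ferritin subunits went apart, with the light chain FTL at 0.36 ± 0.06 and the heavy chain FTH1 at -0.46 ± 0.06. HMOX1, heme oxygenase, did not pass (-0.00 ± 0.11). Of 32 targets of ATF4, the factor of the amino acid response, 9 rose and 3 fell (median 0.06). PHGDH, the first enzyme of serine synthesis, rose by 0.78 ± 0.10 and SHMT2 by 0.50 ± 0.05, whereas SLC38A2, an amino acid transporter, fell by 0.72 ± 0.06 and the related factor ATF5 by 0.34 ± 0.08. DDIT3, the stress factor CHOP, rose by 0.44 ± 0.10.

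The promoters of SREBF2 and TXNRD1 are shown, 1 gene of the lower and 1 of the higher of these pathways. SREBF2 was the only promoter of its list to hold the element marked below. TXNRD1 was among those of its list that held theirs, so neither stands for its list. Each window runs from 250 bases before to 50 after the RefSeq start (GRCh38.p14): chr22:41832855-41833154 for SREBF2 and chr12:104215529-104215828 for TXNRD1, both on the plus strand. Capitals mark matches to TCACNCCAC, a form of the sterol element, in SREBF2 and to TGACNNNGC, the core of the antioxidant element, in TXNRD1, on either strand.
SREBF2: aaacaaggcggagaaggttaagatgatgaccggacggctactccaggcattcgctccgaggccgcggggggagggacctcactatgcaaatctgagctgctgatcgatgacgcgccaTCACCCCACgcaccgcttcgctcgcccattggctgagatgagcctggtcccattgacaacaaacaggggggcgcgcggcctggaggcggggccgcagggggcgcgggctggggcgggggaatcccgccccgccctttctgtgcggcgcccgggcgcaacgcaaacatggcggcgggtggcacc
TXNRD1: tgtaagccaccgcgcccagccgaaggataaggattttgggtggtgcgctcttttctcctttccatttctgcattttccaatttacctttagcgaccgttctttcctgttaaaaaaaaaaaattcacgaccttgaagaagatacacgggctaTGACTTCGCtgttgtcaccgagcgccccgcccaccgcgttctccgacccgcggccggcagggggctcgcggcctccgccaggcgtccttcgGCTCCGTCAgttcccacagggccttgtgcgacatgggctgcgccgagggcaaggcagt
The SREBF2 match began 133 bases before the start. The TXNRD1 matches began 99 and 8 bases before it, the latter as the reverse complement. TCACNCCAC was held by 1 of 18 promoters of the cholesterol list (5.56%) and by 313 of all 27305 promoters (1.15%). It was also held by 1 of 19 NRF2 target promoters (5.26%) and 1 of 31 ATF4 target promoters (3.23%). TGACNNNGC was held by 5 of 19 NRF2 target promoters (26.3%) by 10 of 31 ATF4 target promoters (32.3%) and by 3702 of all promoters (13.6%). TGATGNAA, a core of the ATF4 element, was held by 6 of 31 ATF4 target promoters (19.4%) and by 1003 of all (3.67%). Among 7508 promoters of tested genes, TCACNCCAC was held by 0.972%, TGACNNNGC by 15.5% and TGATGNAA by 1.45%. These matches are a description of the letters only.

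Genes of the cell cycle were higher. Of 43 DNA replication genes tested, 33 rose and 1 fell (median 0.37), and of 40 mitotic genes 36 rose and none fell (median 0.44), all 40 lying above 0. AURKA, the mitotic kinase Aurora A, was at 43.2, 41.5 and 37.9 CPM in WT and at 65.8, 66.8 and 71.0 CPM in Y396E (0.73 ± 0.06, edgeR adjusted p = 3.02e-10). The groups were apart. The spindle factors TPX2 and KIF11 rose by 0.82 ± 0.07 and 0.77 ± 0.08, CCNA2, cyclin A, by 0.65 ± 0.05 and CDC20, an activator of the anaphase-promoting complex, by 0.64 ± 0.05. Among replication genes, the helicase subunit MCM2 rose by 0.73 ± 0.11, RRM2, a ribonucleotide reductase subunit, by 0.52 ± 0.05 and CDC6, which loads the helicase, by 0.49 ± 0.06. The replication gene that fell was MCM4, on the chromosome 8 stretch. In bulk RNA, a different share of cells in a phase and a different amount of RNA per cell cannot be told apart. Of 23 p53 targets 1 rose and 6 fell (median -0.14), 1 of the 6 (RRM2B) on the stretch, and CDKN1A, the p21 inhibitor, did not pass the fold threshold (-0.24 ± 0.04).

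Glycolytic and hypoxia genes were split, with 11 of 29 higher and 4 lower (median 0.17), 1 of the 4 (NDRG1) on the stretch. Hexokinase HK1 rose by 0.87 ± 0.12, pyruvate kinase PKM by 0.57 ± 0.08, the glucose transporter SLC2A1 by 0.56 ± 0.07 and enolase ENO1 by 0.50 ± 0.06. ALDOC, an aldolase, changed by -0.85. All 13 mRNAs of the mitochondrial genome lay below 0 and 11 fell (median -0.65). MT-CO1, a subunit of cytochrome oxidase, was at 36551, 45583 and 32637 CPM in WT and at 24938, 19326 and 17699.9 CPM in Y396E (-0.89 ± 0.13, edgeR adjusted p = 5.48e-06). No Y396E library reached the lowest WT library. Of 21 nuclear subunits of complexes III and IV, 1 rose and 3 fell (median -0.10), and all 3 that fell are on the stretch.

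Epithelial genes moved in both directions. Of 20 kallikrein and epidermal genes, 9 fell and 4 rose (median -0.15). KLK7 was at 152, 159.8 and 140.3 CPM in WT and at 46.3, 46.4 and 44.7 CPM in Y396E (-1.72 ± 0.05, edgeR adjusted p = 2.54e-17), without overlap. Its neighbours in the protease cluster of chromosome 19 fell too, KLK6 by 1.55 ± 0.07, KLK10 by 1.48 ± 0.09 and KLK8 by 1.02 ± 0.07, while the keratin KRT7 rose by 0.80 ± 0.11. Of 10 intestinal epithelial genes, 5 fell and 2 rose (median -0.14). The tight-junction claudins CLDN4, CLDN3 and CLDN7 fell by 1.32 ± 0.07, 1.17 ± 0.12 and 0.59 ± 0.07, and CDH1, E-cadherin, by 0.42 ± 0.08. Of 11 mesenchymal genes, 5 fell, 1 of them (GEM) on the chromosome 8 stretch, and 1 rose (median -0.15), with CAV1, the caveolar coat protein, at -0.80 ± 0.06 and the integrin ITGA3 at -0.51 ± 0.06. Only 1 of the 28 markers of other cell types passed the filter on low counts, MKX.

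Other signalling lists held calls in both directions. Off the stretch, 14.8% of all genes were called higher and 12.4% lower. The shares were 12.5% and 18.8% in the interferon list and 17.9% and 21.4% in the YAP and SRF list. With so few genes per list, nothing is read from counts near those of all genes. Of 13 TGF-beta and BMP targets 3 rose and 4 fell (median -0.20), with ID1, an inhibitor of differentiation, at 0.58 ± 0.08 and the stress cytokine GDF15 at -0.48 ± 0.10. Of 10 WNT targets and feedback genes 2 rose and 1 fell (median 0.07): the secreted inhibitors DKK1 and NOTUM rose by 0.63 ± 0.08 and 0.59 ± 0.08, and the receptor FZD5 fell by 0.29 ± 0.09. CTNNB1, beta-catenin, was at 0.43 ± 0.07. Of 28 YAP and SRF targets 5 rose and 6 fell (median 0.01). TAGLN2, an actin-binding protein, rose by 0.50 ± 0.04 and FHL2 fell by 0.48 ± 0.07. Of 18 axon guidance genes 2 rose and 6 fell (median -0.08), with the neurotrophin BDNF at 0.57 ± 0.06, SEMA4C at -0.99 ± 0.11 and the ephrin EFNB2 at -0.85 ± 0.13. Of 16 interferon and antigen genes 2 rose and 3 fell (median -0.15), and of 9 NF-kB genes and chemokines 3 rose and 2 fell (median -0.04), with IL18 at -0.51 ± 0.08.

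Genes of the translation and decay machinery changed little outside chromosome 8. None of 75 cytosolic ribosomal protein genes rose and 7 fell (median -0.15), 4 of them on the stretch. These genes share sequence with many pseudogenes, so reads could be lost between copies and their counts are uncertain. The 71 elsewhere all lay below 0, but with scaling by library totals alone 29 of the 75 lay above 0 and 46 below, with a median of -0.02. Of 12 eIF3 subunits 2 rose and 2 fell, and the 2 that fell, EIF3E and EIF3H, are on the stretch. Of 28 poly(A)-binding and decay genes 3 rose and 1 fell, the latter PABPC1 on the stretch. Of 18 cohesin and COP9 genes 4 rose and 1 fell, the latter COPS5 on the stretch.

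**Figure D3:**
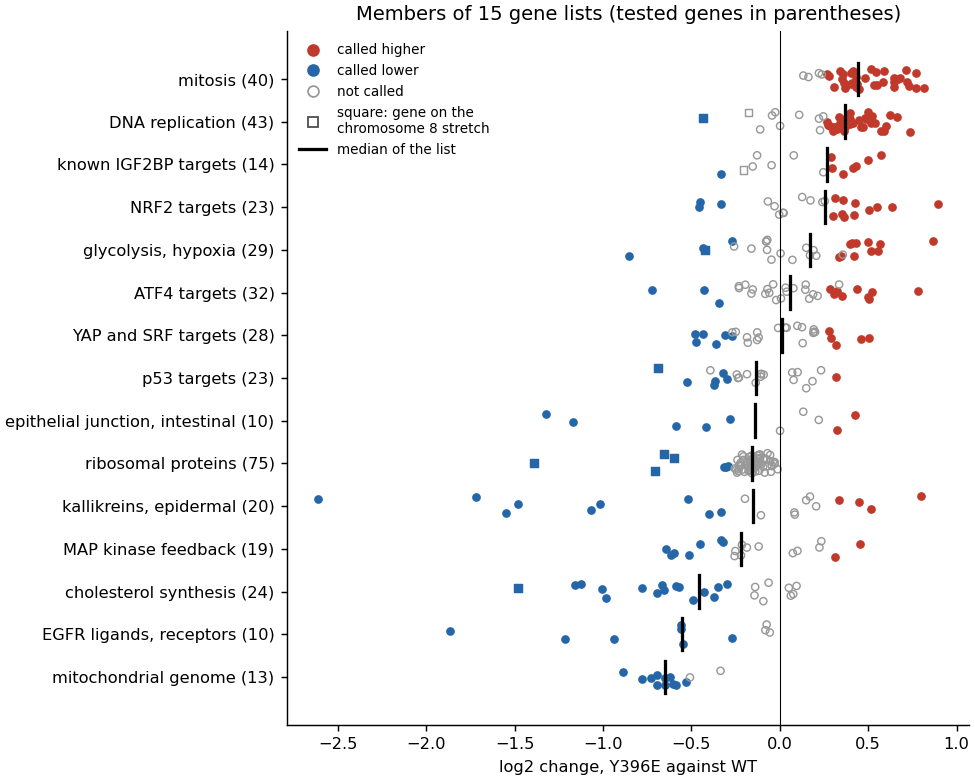
Log2 change of the tested members of 15 of the 27 gene lists, Y396E against WT in control cells, 1 point per gene with the list median as a bar. The mitotic list has a median of 0.44 with all members above 0, and the cholesterol list a median of -0.46.

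The stretch of chromosome 8 was chosen on the same contrast, so its values are given as a description with no test. It held 420 protein-coding genes, of which 207 passed the filter. Of these, 187 were called lower (90.3%), 2 higher and 18 were not called, and 203 lay below 0. These counts come from the contrast that set the stretch, so nothing is read from them. The median log2 change was -0.60, a level 0.661 times that of WT. Against the WT mean, the stretch median was -0.60, -0.61 and -0.59 in the 3 Y396E libraries, so the libraries were nearly alike. The share of all counts from the stretch was 3.06% to 3.25% in WT, 2.20% to 2.32% in Y396E and 3.36% in the parental library. On the rest of chromosome 8, 24 of 115 genes were higher and 14 lower (33.0% called), with a median of 0.11.

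The stretch was set to begin at HGSNAT, a lysosomal acetyltransferase gene that begins at 43140464 (hg38). The last 3 genes tested before it, HOOK3, FNTA and POMK, had log2 changes of 0.14, -0.03 and -0.14, and the first 3 from it on, HGSNAT, SPIDR and CEBPD, of -0.60, -0.94 and -1.25. Within the last 1 Mb before HGSNAT, the phosphate transporter gene SLC20A2 was at -1.04 and SMIM19 at -0.27. The other genes tested in that 1 Mb were not called lower, among them the 3 nearest to HGSNAT. No gene was tested in the 4.12 Mb between HGSNAT and SPIDR, so the edge was not placed closely. The median was 0.12 over the last 10 Mb before the boundary (values from -1.04 to 0.91) and -0.94 over the first 10 Mb after it. It was -0.40 between 70 and 80 Mb and -0.66 between 100 and 110 Mb. The drop was thus uneven along the stretch.

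**Figure D4:**
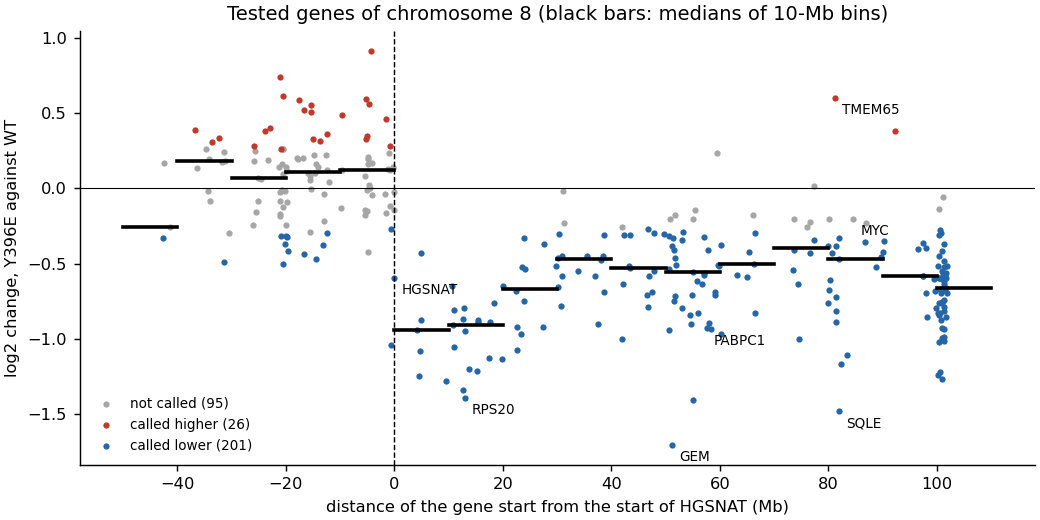
Log2 change of each gene tested on chromosome 8 against its distance in Mb from HGSNAT, Y396E against WT in control cells, with the median of 10-Mb bins. The 4 bins nearest before HGSNAT have medians of 0.07 to 0.18 and those after it of -0.94 to -0.40.

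The stretch holds several abundant genes of translation. PABPC1, the major cytoplasmic poly(A)-binding protein, was at 3942, 4296 and 4196 CPM in WT and at 2155, 2216 and 2153 CPM in Y396E (-0.93 ± 0.04). RPS20, a small-subunit ribosomal protein, was at 1898, 2319 and 1955 CPM in WT and at 798, 769 and 786 CPM in Y396E (-1.39 ± 0.07). Both genes were apart between groups, and RPL7, RPL30 and RPL8 were at -0.65, -0.71 and -0.60. EIF3E and EIF3H were at -0.59 and -0.54, and the respiratory subunits UQCRB, COX6C and CYC1 at -0.80, -0.63 and -0.55. The lowest values were those of GEM, a small GTPase (-1.71 ± 0.11), SQLE (-1.48 ± 0.10) and the magnesium transporter gene NIPAL2 (-1.41 ± 0.08). The oncogene MYC was among the genes not called (-0.21 ± 0.05). The highest were TMEM65 at 0.60, KHDRBS3 at 0.38 and KLF10 at 0.23.

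The levels of these genes in the other control libraries are given side by side, since every comparison with WT uses the same 3 WT libraries. ZBED2 was at a mean of 6.36 CPM in RQ, 63.1 in S181E and 50.4 in the parental library. HTR7 was at 33.9 CPM in RQ, 5.48 in S181E and 8.39 in the parental library. For both, the WT and RQ levels stood together and the Y396E, S181E and parental levels stood together. AREG was at 816 CPM in RQ, 231 in S181E and 451 in the parental library, which lay between. BMP4 was at 75.1 CPM in RQ, 284 in S181E and 82.4 in the parental library, and NR2F1 at 89.7, 34.7 and 90.5 CPM. For these last 2 genes the parental library stood with WT. Other genes named above went both ways. HK1 was at a mean of 19.0 CPM in WT, 34.8 in Y396E and 33.4 in the parental library. KLK8 was at 73.2, 36.1 and 33.4 CPM in that order. NQO1 was at 284 CPM in WT and 380 in Y396E, with the parental library above both means. For these genes the parental library stood nearer Y396E. SLC7A11 was at 31.6, 45.0 and 29.2 CPM and KRT7 at 17.9, 31.0 and 17.9, with the parental library nearer WT. In RQ and S181E, HK1 was at 15.9 and 33.7 CPM, KLK8 at 76.1 and 33.6 and NQO1 at 278 and 377. KRT7 was at 21.3 and 24.8 CPM there. SLC7A11 was at 86.9 CPM in RQ, above every Y396E library, and at 48.0 CPM in S181E. The stretch median against the WT mean was -0.61, -0.60 and -0.61 in the S181E libraries, 0.01 to 0.04 in the RQ libraries and 0.01 in the parental library.

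Y396E and S181E control libraries were compared directly. Of 9099 genes, 0 were called by edgeR's quasi-likelihood test (0.00%), with 289 (3.18%) at an unadjusted p under 0.05, and 1 was called by DESeq2, with 319 (3.51%) at an unadjusted p under 0.05. The median absolute log2 difference was 0.05. A p that misses the threshold does not show that the 2 populations are alike.

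The same contrast in arsenite used other libraries of the same WT and Y396E populations. It therefore cannot tell the mutation from a difference between populations either. The third Y396E arsenite library stood apart, with counts on 13897 genes against 20850 to 23473 in the other 25 libraries, although its total of 37961265 was not low. None of the 9099 genes tested was at 0 in it. Of the 2417 genes called off the stretch in control cells, 1815 had the same direction in arsenite, 676 were also called the same way and 26 the opposite way. The share of all genes with the same direction is not given, so nothing is read from the 1815. In arsenite 1785 of the 8892 genes off the stretch were called (20.1%). Without that library the counts were 1880, 643 and 15, and 1480 genes were called. On the stretch, 187 of the 189 called genes had the same direction, with a median of -0.60 in arsenite. In arsenite, ZBED2 had a mean of 2.82 CPM in WT and 20.0 in Y396E, and HTR7 of 19.2 and 2.55 CPM.

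**Figure D5:**
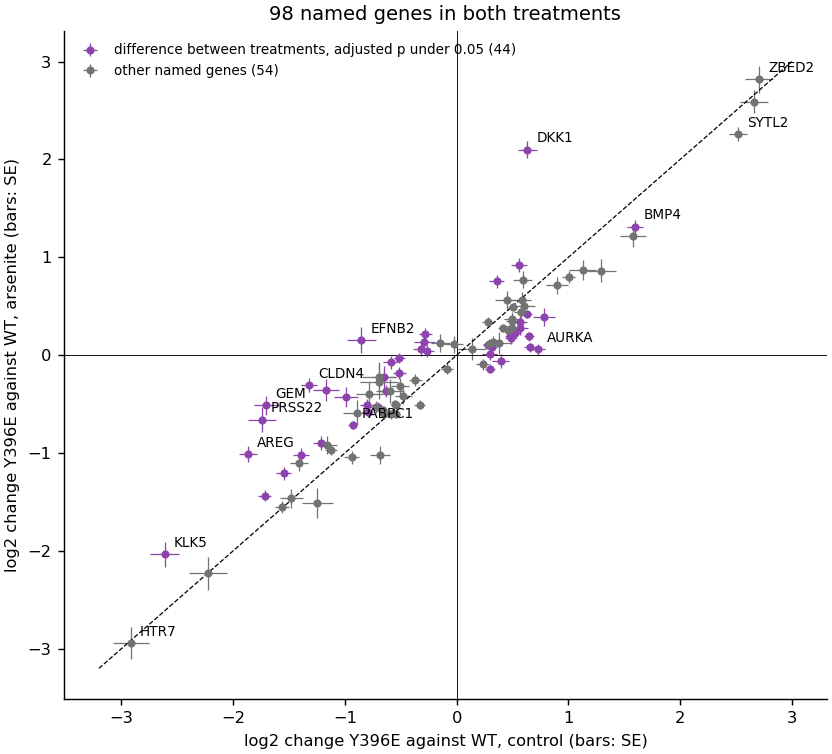
Log2 change of the 98 named genes, Y396E against WT, in arsenite against control (bars, SE), with equality as a dashed line. ZBED2 lies near the line at the upper right and AREG above it, at -1.87 in control cells.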

How the data were processed

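RNA was taken from clarified lysate, selected for poly(A), made into directional libraries and sequenced as single reads. The authors aligned reads with STAR 2.7.11b to hg38 and counted them per gene with featureCounts (Subread 2.0.6) on the reverse strand, and the deposited values are raw counts per gene. Symbols and gene types came from GENCODE 44, which matched 62541 of the 63086 gene IDs (99.1%). Protein-coding genes above 10 CPM in at least 12 of 24 libraries were tested (9099) with edgeR 4.0.16 (R 4.3.3), using TMM factors (0.865 to 1.09), a quasi-likelihood fit with 1 mean per group over the 24 libraries of the 4 mCherry-IGF2BP1 forms (16 residual degrees of freedom), and Benjamini-Hochberg adjustment. The parental libraries have no replicate and entered no test. SE is the log2 change divided by the root of F. CPM values use TMM-scaled totals. The exceptions are the summed marker levels and the keratin, EPCAM and first CDH1 values beside them, which use library totals. Counting error alone is small at these depths, and the median SE was 0.078.

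The genes named were IGF2BP1 to IGF2BP3, the 8 largest rises and falls by log2 change and the 4 by CPM among called genes whose groups did not overlap, the 3 called members of each list with the lowest adjusted p, and on the stretch PABPC1, both extremes and the genes at the boundary. Some genes that the rule names are not reported here. A further 26 genes were chosen after their values were seen, as were ERBB3, AXL, MET, GDF15, ALDOC, NDRG1, SLC20A2, SMIM19, the keratins and the direct comparison with S181E. The members and gene lists were chosen with earlier results of these data known. The fit was tested on simulated data. DESeq2 1.42.0, other scalings, filters, libraries and thresholds were tried as alternatives.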

Additional observations from a re-analysis of the deposited data

Results flagged for a closer look

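Of the 114 called genes given by name, 59 had a difference between Y396E and WT that itself differed between arsenite and control cells (edgeR's quasi-likelihood test of the interaction, Benjamini-Hochberg, adjusted p from 3.93e-08 to 0.0491). So did 1107 of the 2417 genes called off the stretch, and 25.5% of all genes tested there. The test uses 3 libraries per group, and 58 of the 59 also passed without the third Y396E arsenite library, the exception being KLK10. Values are the log2 change in arsenite minus that in control cells.

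The sign was opposite in 11 genes, none of which was called in arsenite, where their log2 changes lay between -0.14 and 0.22. For those higher in control cells the values were CTNNB1 -0.44, DDIT3 -0.52, KIF11 -0.81, LARP4 -0.44 and SMC1A -0.45, and for those lower in control cells EFNB2 1.01, FZD5 0.43, HBEGF 1.05, HLA-E 0.31, IFITM3 0.38 and ISG15 0.50. Without the third Y396E library the arsenite log2 change was -0.17 for EFNB2 and 0.02 for KIF11, so these 2 no longer had the opposite sign.

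The change was larger in arsenite in 4 genes, DKK1 1.47, FTL 0.40, KRT7 1.05 and SLC2A1 0.37. It was smaller in 44. The genes were named for their change in control cells, which the difference subtracts, so their choice favours a smaller change in arsenite. Among those higher in control cells the values were AEN -0.23, AURKA -0.67, BDNF -0.23, BMP4 -0.28, CCNA2 -0.57, CDC20 -0.45, CDC6 -0.31, CNOT3 -0.28, IGF2BP3 -0.28, MCM2 -0.66, NQO1 -0.23, PHGDH -0.39, PKM -0.29, RRM2 -0.29, SOD2 -0.18, TPX2 -0.67 and TXNRD1 -0.21, which include the mitotic genes AURKA, CCNA2, CDC20 and TPX2. Among those lower in control cells the values were AREG 0.86, CAV1 0.29, CDH1 0.37, CLDN3 0.81, CLDN4 1.02, CLDN7 0.51, COX6C 0.26, EGR1 0.40, ERBB2 0.40, EREG 0.32, FTH1 0.24, GEM 1.19, ITGA3 0.33, KLK10 0.39, KLK5 0.58, KLK6 0.34, KLK7 0.28, KLK8 0.30, LIF 0.48, MT-ND1 0.43, PABPC1 0.22, PRSS22 1.08, RPL30 0.18, RPL8 0.20, RPS20 0.37, SEMA4C 0.56 and UQCRB 0.22, which include the EGFR ligands AREG and EREG, the claudins and the kallikreins.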

How the results depend on the processing

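Called genes numbered 4019 with no fold threshold, 417 above 1.5-fold and 75 above 2-fold (3818, 309 and 52 off the stretch), against 2606 and 2417. Scaling by library totals alone gave 2712 higher and 476 lower genes off the stretch (85.1% higher, against 54.4%). The stretch median was -0.47 with library totals, -0.61 with TMM factors computed without the stretch and the mitochondrial genome, -0.56 with no filter, -0.61 in the 6 or the 12 control libraries alone, -0.58 with GC and length correction and -0.61 to -0.58 with 1 library left out. Leaving out 1 library gave 1921 (without WT replicate 2) to 2646 (without WT replicate 3) calls off the stretch. The log2 change of FNTA was 0.10 with library totals and -0.078 to 0.0062 with 1 library left out. The log2 change of IGF2BP2 was 0.043 with library totals. Of 93 named genes called, 81 stayed called in all alternatives other than the fold thresholds. Those that did not were ACTB, CNOT3, COPS5, FZD5, GPS1, HLA-E, IFITM3, ISG15, KHDRBS3, LARP4, SOD2 and TNFRSF10B, and the cause was not tested. Same-numbered libraries did not pair consistently. Correlations of deviations were -0.04, 0.05 and 0.42 for them, and -0.36 to 0.32 between libraries of different number. With the replicate block in the 6 libraries the stretch median was -0.61 and 1246 genes were higher and 1286 lower off the stretch, and in 24 libraries 1330 and 1112. The arsenite comparison without Y396E arsenite replicate 3, and the direct comparison with S181E, were chosen after seeing the data. Depth and 3 dishes per group limit the smallest changes, and 1 population per form limits what they can be ascribed to.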

Other observations

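Genes of other types were tested in the same way. The 4 that were higher were the long non-coding RNAs MIR4435-2HG (log2 change 1.02), CYTOR (0.62), LINC00511 (0.31) and SNHG7 (0.27). Among the 42 that were lower, MALAT1, an abundant nuclear RNA, had a mean of 158 CPM in WT and 72.4 CPM in Y396E (-1.12 ± 0.11). RNA was taken from clarified lysate and selected for poly(A), so the count of a nuclear RNA may not follow its level in the cell. How far this bears on MALAT1 was not tested. NR2F1-AS1, which lies beside NR2F1, was at -0.98 ± 0.08, and NORAD was at -0.41. The 2 mitochondrial ribosomal RNAs, MT-RNR2 and MT-RNR1, were at -1.40 and -1.36, beside the lower mitochondrial share of counts in Y396E. Of 7 such genes on the chromosome 8 stretch 5 were lower, among them CASC19 at -0.97, OTUD6B-AS1 at -0.78 and SNHG6 at -0.63.

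Off the stretch, the genes higher in Y396E had a median GC content of 46.5% and those lower 51.3%, against 48.1% over all genes tested there. Their median lengths were 3735 and 3753 bases, against 3931.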
